A study of Columba livia with 19 samples.

Results

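Growing feather collars of pigeons homozygous for either of 2 recessive red alleles, e2 and e1, were compared with each other. Recessive red is a coat colour of the domestic rock pigeon (Columba livia) in which the plumage carries red to yellow pheomelanin in place of black to brown eumelanin. The comparison took the 6 recessive red birds of batch 2, which were collected in 2020, out of 19 birds in the series. Their genotype labels put 3 birds (numbers 5, 7 and 14) in the e2 homozygous group and 3 birds (numbers 6, 11 and 12) in the e1 homozygous group. The 5 homozygous wild-type birds of batch 2 gave the reference level, and 1 wild-type bird of that batch (number 22) carried a single e1 allele. Batch 1, which the series' design text dates by its sequencing in 2017, held 3 further e1 homozygotes (numbers 1, 3 and 4) and 4 wild-type birds, and no e2 bird. Per the labels' protocols, plucked feathers were left to regrow over 9 to 10 days. The lowest 4 to 5 mm was then cut out and freed of pulp, and its polyadenylated RNA was sequenced. The labels give neither the sex nor the age of any bird, nor its breed.

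SOX10 encodes a transcription factor that neural crest cells need. In melanocytes, the pigment cells that arise from the crest, it acts with MITF on genes of melanin synthesis such as TYR, TYRP1 and DCT. Eumelanin and pheomelanin are made by the same melanocytes, and the choice between them depends on the activity of these enzymes and on the supply of cysteine. The e1 and e2 alleles are separate mutations at SOX10. The collar is the ring of proliferating epidermis at the base of a growing feather, in which melanocytes lie among a large majority of keratinocytes.

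The gene identifiers in the count table are headed Cliv2.1, and 0 of 15392 matched the 22830 entries of a RefSeq pigeon annotation (bColLiv1.pat.W.v2). The files used here pair none of them with a name, so each gene is called by its identifier, with no function, position or sequence. For the same reason the level of SOX10 and of markers of melanocytes, keratinocytes or other cells of the collar was not analysed here. The collar is a mixture of cells, and in such bulk samples fewer cells of a type and less RNA per cell cannot be told apart.

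Both alleles had lost the transcripts that served as a reference for the phenotype. These were the pair of genes that fell most in e1 birds of batch 1 among genes with a mean log2 CPM of at least 1, a comparison in which none of the 6 birds had a part. A306_00007909 stood at 3.39, 3.22 and 23.2 CPM in e2 birds 5, 7 and 14 and at 7.58, 3.39 and 7.68 CPM in e1 birds 6, 11 and 12, where CPM is the count scaled to a common library size (CPM values are not corrected for transcript length). Wild-type birds of batch 2 held 2908 to 8200 CPM of it. The alleles overlapped, and each of the 6 birds lay far below each wild-type bird. The log2 difference of A306_00007909 between e2 and e1, by edgeR's quasi-likelihood fit, was 0.68 ± 0.67 (SE) with a 95% interval from -0.78 to 2.15 (edgeR, adjusted p = 0.999). Without e2 bird 14 the difference of A306_00007909 was -0.91, so that its sign rested on that bird. A306_00015279 had 0 counts in all 3 e2 birds and 1, 0 and 2 counts in e1 birds 6, 11 and 12, beside 51 to 181 counts in the wild-type birds of batch 2. Both alleles were at or under a floor of 3 counts over the group, so no fold between them is given.

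Over the whole transcriptome the e1 birds were on average closer to their own allele than to the other, and the e2 birds were not. The distance between birds was taken as the root mean square difference in log2 CPM over 13269 genes. It was 0.778 between e2 birds 5 and 7, 0.695 between 5 and 14 and 0.649 between 7 and 14. Among the e1 birds it was 0.638 between 6 and 11, 0.681 between 6 and 12 and 0.525 between 11 and 12. The 9 pairs of an e2 and an e1 bird ranged from 0.609 to 0.763, with a median of 0.661, which lay within the range of the e2 pairs. The nearest bird to e2 bird 5 among the 6 was e1 bird 6, at 0.628, and the nearest to e2 bird 7 was e1 bird 11, at 0.609. The nearest to e2 bird 14 was e2 bird 7, at 0.649, and e1 birds 11 and 12 were nearest to each other, so that 3 of the 6 birds had a bird of their own allele as the nearest. The mean distance of e1 birds 6, 11 and 12 was 0.660, 0.582 and 0.603 to the other e1 birds and 0.677, 0.651 and 0.683 to the e2 birds. For e2 birds 5, 7 and 14 it was 0.736, 0.713 and 0.672 to the other e2 birds and 0.694, 0.646 and 0.671 to the e1 birds. The 10 pairs of wild-type birds were closer, with a median of 0.522 and a range of 0.444 to 0.678. These pairs share birds, and no test was made.

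**Figure D1:**
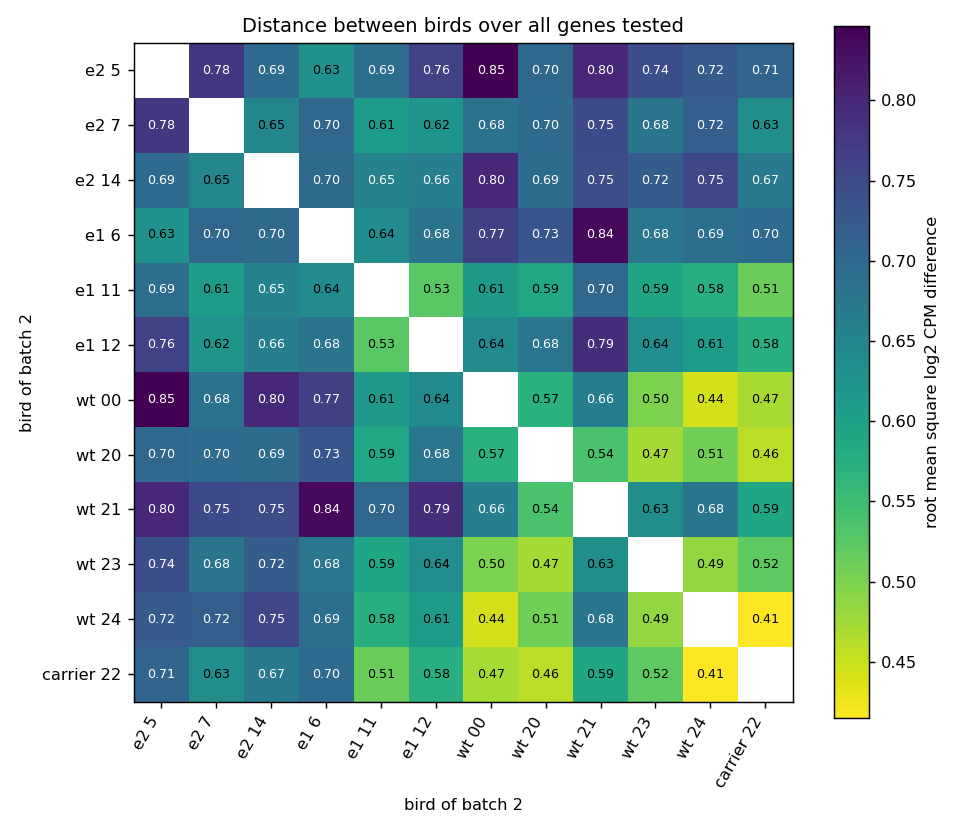
Root mean square difference in log2 CPM between each pair of the 12 birds of batch 2, over 13269 genes (colour and printed value; wt is homozygous wild type). The pairs of e2 birds (0.649 to 0.778) are no closer than the pairs of an e2 and an e1 bird (0.609 to 0.763), the pairs of e1 birds reach down to 0.525, and wild-type birds are closer to each other (median 0.522).

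The largest component of variance among the 6 birds did not follow the allele. The first principal component held 32.6% of the variance and placed e2 bird 5 at 48.2 and e1 bird 6 at 25.8, with e2 bird 14 at -2.53, e1 bird 11 at -14.4, e1 bird 12 at -27.7 and e2 bird 7 at -29.5. The second component held 22.02% and placed the e2 birds between 4.13 and 43.9 and the e1 birds between -21.3 and -18.9. On that component the e1 birds formed a narrow group and the e2 birds did not. Total counts were 18094465, 15170832 and 19299570 in e2 birds 5, 7 and 14 and 17271989, 14803482 and 13559606 in e1 birds 6, 11 and 12, and 14157 to 14385 genes had a count in each of the 6 birds. Birds 5, 6 and 14, the 3 highest on the first component, had both the highest totals and the most detected genes. The part of depth in that component was not tested.

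The first question was which transcripts differ between the alleles. Tested directly with edgeR's quasi-likelihood test, 1 gene was higher and 2 were lower in e2 than in e1, which is 0.0226% of the 13269 genes tested (0.00754% higher and 0.0151% lower). A gene was called at a Benjamini-Hochberg adjusted p under 0.05 with no minimum fold. Differences were small for most genes: 84.8% of them had an absolute log2 difference under 0.5, and the median difference was -0.002. An unadjusted p under 0.05 was reached by 800 genes (6.03%), of which 446 (3.36%) were higher and 354 (2.67%) were lower in e2. Where no gene differs, a share near that threshold still passes by chance. By mean log2 CPM the share was 8.63% under 0, 10.3% between 0 and 2 and 7.43% between 2 and 4. It was 4.85% between 4 and 6 and 3.79% over 6. At least 2-fold differences were about as many in each direction, with 305 genes higher (2.3%) and 298 lower (2.25%) in e2. Most were in genes of low level, where the fit is least precise. By mean log2 CPM, 279 were under 0, 200 between 0 and 2, 65 between 2 and 4, 40 between 4 and 6 and 19 over 6. DESeq2, run on 15115 genes in place of 13269, called 28 genes, 14 in each direction, among them all 3 of edgeR's. All 28 were among the genes that edgeR tested.

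A306_00012780 was higher in e2. It stood at 24.4, 23.4 and 27.6 CPM in e2 birds 5, 7 and 14 and at 11.2, 9.90 and 9.69 CPM in e1 birds 6, 11 and 12. Wild-type birds 00, 20, 21, 23 and 24 held 10.1, 10.5, 8.62, 11.01 and 8.87 CPM of it, and the carrier held 11.04 CPM. Every e2 bird was above every other bird of batch 2, and the e1 birds lay within the wild-type range or, for bird 6, just above it. The log2 difference of A306_00012780 between e2 (25.1 ± 2.15 CPM, SD, n = 3) and e1 (10.3 ± 0.805 CPM, SD, n = 3) was 1.29 ± 0.16 (SE; edgeR, adjusted p = 0.0452). Against wild type of batch 2, which both comparisons share, its log2 difference was 1.35 ± 0.14 (SE; edgeR, adjusted p = 4.35e-04) in e2 and 0.06 ± 0.15 (SE; edgeR, adjusted p = 0.906) in e1.

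A306_00013822 was lower in e2, and the e1 birds lay between e2 and wild type. It stood at 46.8, 48.8 and 50.8 CPM in e2 birds 5, 7 and 14 and at 109, 83.4 and 109 CPM in e1 birds 6, 11 and 12. Wild-type birds 00, 20, 21, 23 and 24 held 135, 175, 140, 162 and 145 CPM of it, and the carrier held 105 CPM. The e2, e1 and wild-type birds of batch 2 formed a series of 3 levels for A306_00013822 without overlap, with the carrier within the range of the e1 birds. The log2 difference of A306_00013822 between e2 and e1 was -1.04 ± 0.15 (SE, n = 3 and 3; edgeR, adjusted p = 0.0453). Against wild type of batch 2 it was -1.63 ± 0.14 in e2 (SE; edgeR, adjusted p = 1.27e-04). In e1 it was -0.59 ± 0.13 (SE; edgeR, adjusted p = 0.0521), so the step from wild type to e1 was not called. Nor was e1 called against wild type in batch 1, where the log2 change of A306_00013822 was larger, at -1.31 ± 0.36 (SE; edgeR, adjusted p = 0.268).

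A306_00009490 was also lower in e2 and also showed 3 separate levels. Its CPM values were 4.83, 7.27 and 7.14 in e2 birds 5, 7 and 14 and at 23.7, 20.8 and 20.8 in e1 birds 6, 11 and 12. Wild-type birds 00, 20, 21, 23 and 24 held 49.4, 47.1, 37.6, 43.2 and 73.9 CPM of it. The carrier held 48.4 CPM, within the wild-type range. The log2 difference of A306_00009490 between e2 and e1 was -1.76 ± 0.25 (SE, n = 3 and 3; edgeR, adjusted p = 0.0453).

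A306_00004083 had the lowest p among the higher genes that were not called and whose alleles did not overlap. It stood at 40.5, 32.1 and 49.5 CPM in e2 birds 5, 7 and 14, at 20.3, 20.4 and 11.2 CPM in e1 birds 6, 11 and 12, and at 20.1 to 26.1 CPM in wild-type birds of batch 2. The carrier, at 33.9 CPM, lay within the e2 range. The log2 difference of A306_00004083 was 1.23 ± 0.23 (SE, n = 3 and 3; edgeR, adjusted p = 0.345), and DESeq2 gave it an adjusted p of 8.17e-04.

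**Figure D2:**
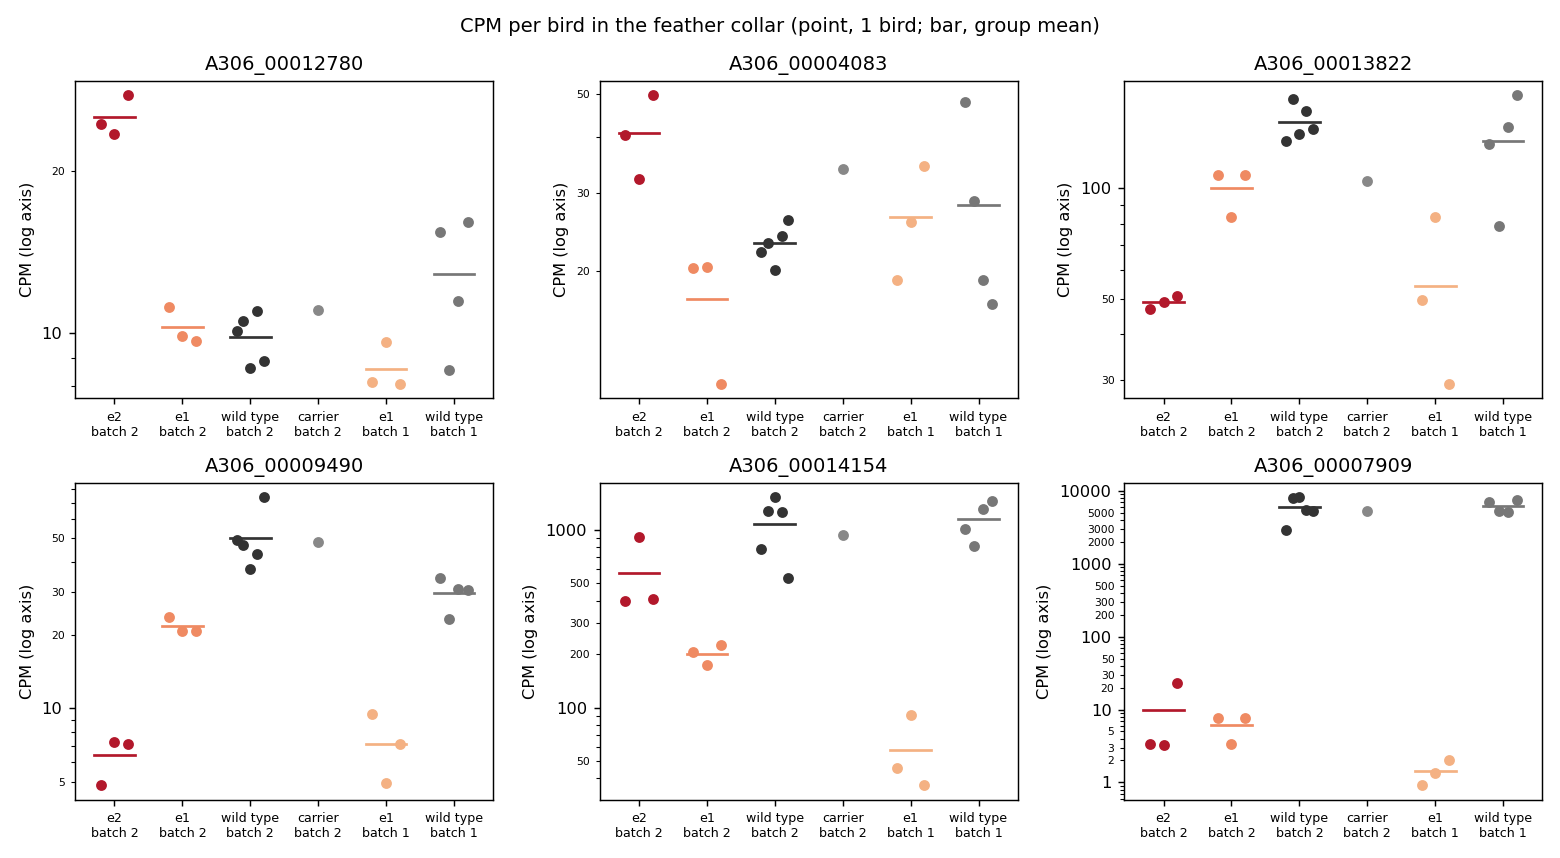
CPM of 6 genes in every bird, on log axes that do not start at 0 (each point is 1 bird, each bar the mean of a group; groups are genotype and batch). The e2 birds stand above all other birds for A306_00012780 (23.4 to 27.6 CPM) and below e1 and wild type of the same batch for A306_00013822 and A306_00009490, while both alleles are near 0 beside wild type for A306_00007909.

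The 3 calls were lost when most single birds were left out. With edgeR the count fell to 0 when only the 6 birds of the comparison were fitted (472 genes at an unadjusted p under 0.05) and to 0 with the total count of each bird as a covariate (1215 genes at an unadjusted p under 0.05). It was also 0 without any 1 of e2 birds 5, 7 and 14, e1 birds 11 and 12 and wild-type birds 00, 20, 21 and 23. Without e1 bird 6 it was 1, a gene other than these 3. Without wild-type bird 24, 2 of the 3 calls were kept, and without the carrier all 3 were. Over the 24 alternatives in which each was refitted, the differences ranged from 1.18 to 1.49 for A306_00012780, -1.15 to -0.83 for A306_00013822 and -1.91 to -1.51 for A306_00009490. Their sign could hardly change, because the genes were picked in these same birds and their alleles did not overlap.

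**Figure D3:**
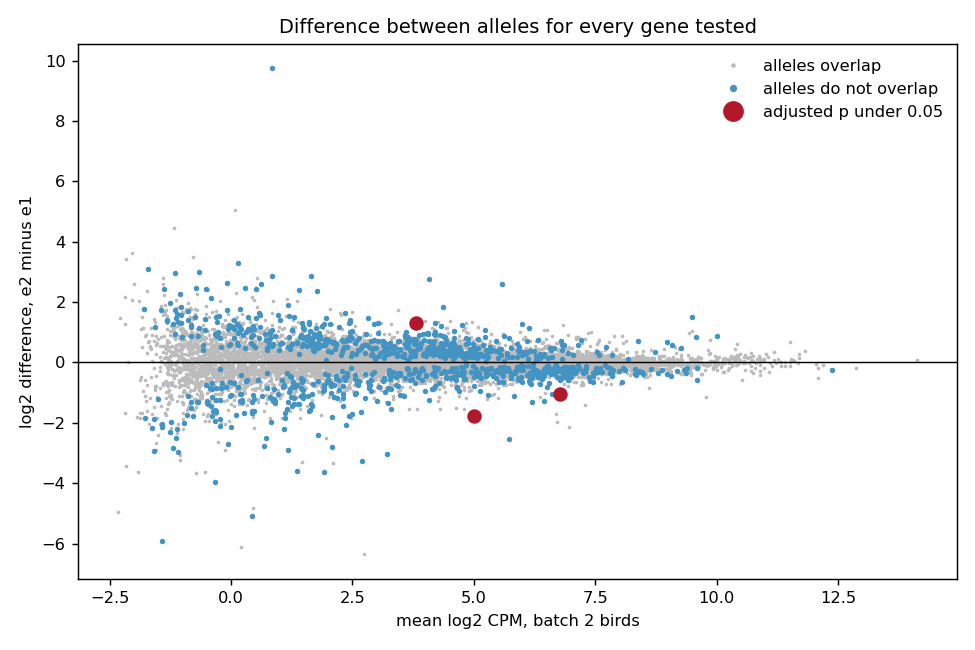
Log2 difference between e2 and e1 of each of 13269 genes against its mean log2 CPM in batch 2 (blue, genes in which the 3 e2 birds and the 3 e1 birds do not overlap; red, the 3 genes with an adjusted p under 0.05). Differences narrow towards abundant genes and are spread about evenly above and below 0, with 305 genes at least 2-fold higher and 298 at least 2-fold lower in e2.

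The second question was whether e2 also differs from other e1 birds. The e1 and wild-type birds of batch 1 had no part in the direct comparison, so the change of e2 against wild type of batch 2 was set against the change of e1 against wild type of batch 1, in a single fit of all 19 birds. By edgeR 2 of 13420 genes were called (0.0149%), both higher in e2. No gene was called lower by edgeR. An unadjusted p under 0.05, which a share near that threshold reaches by chance, was found for 1167 genes (8.7%). Of these, 452 (3.37%) were lower and 715 (5.33%) higher. DESeq2, run on 15185 genes, called 33 higher and 17 lower. With no e2 bird in batch 1, a difference of allele and a difference between the batches in the response to recessive red cannot be told apart here.

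A306_00012780 was called again. It stood at 8.11, 9.62 and 8.07 CPM in e1 birds 1, 3 and 4 of batch 1 and at 15.4, 8.56, 11.5 and 16.1 CPM in wild-type birds 1, 2, 3 and 4 of that batch. The e1 birds of batch 1 overlapped wild type of their batch, as those of batch 2 did. The log2 change of A306_00012780 in e1 of batch 1 was -0.58 ± 0.24 (SE; edgeR, adjusted p = 0.638). That change was not called, and it enters the value that follows. The difference of A306_00012780 between the changes was 1.95 ± 0.26 on the log2 scale (SE; edgeR, adjusted p = 0.00854), larger than the 1.29 against e1 of batch 2. The same e2 birds enter both values. It kept an adjusted p under 0.05 in 23 of 25 alternatives, and the exceptions were the fits without e1 bird 1 (adjusted p = 0.0677, edgeR) and without e1 bird 4 (adjusted p = 0.0706, edgeR) of batch 1.

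A306_00014154 was the other gene called, and relative to wild type it was higher in e2 than in e1. It stood at 397, 908 and 406 CPM in e2 birds 5, 7 and 14 and at 206, 173 and 224 CPM in e1 birds 6, 11 and 12. Wild-type birds 00, 20, 21, 23 and 24 held 782, 1283, 1530, 1266 and 538 CPM of it. The e2 birds lay above the e1 birds without overlap, and e2 bird 7 was inside the wild-type range while birds 5 and 14 were below it. In batch 1 the e1 birds 1, 3 and 4 held 45.7, 90.6 and 36.5 CPM of A306_00014154, beside 816 to 1455 CPM in wild type. Its log2 change against wild type of the same batch was -4.32 ± 0.37 (SE; edgeR, adjusted p = 0.00107) in e1 of batch 1, -2.42 ± 0.38 (SE; edgeR, adjusted p = 0.00806) in e1 of batch 2 and -0.92 ± 0.35 (SE; edgeR, adjusted p = 0.220) in e2.

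The difference of A306_00014154 between e2 and e1 of batch 1, each relative to wild type, was 3.41 ± 0.52 on the log2 scale (SE; edgeR, adjusted p = 0.0293). Against e1 of batch 2 it was 1.504 ± 0.39 (SE; edgeR, adjusted p = 0.599; DESeq2, adjusted p = 0.0408), with a 95% interval from 0.66 to 2.35. The first call held in 14 of 25 alternatives and was lost without e2 bird 7, e1 bird 1 or 4 of batch 1, e1 bird 11 or 12, wild-type bird 00, 20 or 23 of batch 2, or wild-type bird 1, 3 or 4 of batch 1, with edgeR adjusted p-values from 0.0523 to 0.250. Without e2 bird 7, the bird with the highest value, the differences of A306_00014154 were 2.91 (adjusted p = 0.0686, edgeR) and 1.01 (adjusted p = 0.464, edgeR). The size of the difference depended on which e1 birds were used.

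The genes lower in e2 than in e1 of batch 2 were not called against e1 of batch 1. A306_00013822 stood at 49.5, 83.4 and 29.3 CPM in e1 birds 1, 3 and 4, beside 79.0 to 179 CPM in wild type of that batch, and its difference between the changes was -0.31 ± 0.38 (SE; edgeR, adjusted p = 0.825). In those birds the CPM values of A306_00009490 were 9.45, 4.92 and 7.11, beside 23.3 to 34.4 CPM in wild type of batch 1. The difference of A306_00009490 between the changes was -0.89 ± 0.33 (SE; edgeR, adjusted p = 0.489). For A306_00004083 it was 0.92 ± 0.41 (SE; edgeR, adjusted p = 0.552), with 19.1, 25.8 and 34.3 CPM in e1 and 16.9 to 47.8 CPM in wild type of batch 1.

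The third question was whether the alleles differ in the transcripts that recessive red loses. The list was taken from batch 1, where 58 of 12693 genes (0.457%) were lower and 1 (0.00788%) was higher in e1 than in wild type (edgeR, adjusted p under 0.05), the lower ones being the list, so that none of the 6 birds had a part in choosing it. All 58 genes passed the filter on low counts in batch 2. At its median the list lay below wild type in both alleles. Relative to the wild-type birds of batch 2, which both comparisons share, the median log2 change was -1.17 in e2 and -1.39 in e1. In e2, 26 of the 58 were called lower and 52 were below wild type, and in e1 32 were called lower and all 58 were below wild type. In 25 of the 58 both alleles were called lower, against 47 of all 13269 genes tested. Over all genes tested, 89 (0.671%) were called lower and 139 (1.05%) higher in e2, and 67 (0.505%) lower and 85 (0.641%) higher in e1, while 6367 genes in e2 and 6256 in e1 were below wild type.

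Between the alleles more genes of the list were higher than lower in e2. Of the 58 genes, 38 were higher and 20 were lower in e2 than in e1, with a median log2 difference of 0.18, against 6592 higher (49.7%), 6676 lower (50.3%) and a median of -0.002 over all 13269 genes. The median was 0.19 over the 57 genes left without A306_00015279, which was at 0 in all e2 birds. The quartiles of the list were -0.10 and 0.48. The median was 0.03 without e2 bird 14 and 0.33 without e1 bird 6. With the total count as a covariate it was 0.07. Among the 34 genes of the list that fell by at least 2 log2 units in batch 1, 19 were higher (55.9%) and 15 lower in e2, with a median of 0.17. In a list of 208 genes chosen in batch 1 by DESeq2, 128 were higher (61.5%) and 79 lower, with a median of 0.10. At an unadjusted p under 0.05, 7 of the 58 were higher (3.36% of all genes) and 2 were lower (2.67%). In 9 genes every e2 bird was above every e1 bird (3.95% of all genes) and in 2 every e2 bird was below (3.74%). By edgeR a single gene of the list, A306_00009490, was called between the alleles, and by DESeq2 2 genes were, A306_00009490 and A306_00014154. The list was chosen for its fall in birds that carry e1, and no test was made over it.

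Together the 58 genes took 0.274%, 0.302% and 0.306% of the counts in e2 birds 5, 7 and 14 and 0.238%, 0.190% and 0.222% in e1 birds 6, 11 and 12. Wild-type birds of batch 2 spent 0.749% to 1.62% on them. The e2 birds were above the e1 birds without overlap, and both were below wild type. That separation rested on A306_00014154. Without it the shares were 0.236%, 0.209% and 0.265% in e2 and 0.219%, 0.172% and 0.199% in e1, and e2 bird 7 lay below e1 bird 6. The median log2 level of the list relative to wild type did not separate the alleles, at -1.34, -1.36 and -0.94 in e2 birds 5, 7 and 14 and -1.04, -1.41 and -1.42 in e1 birds 6, 11 and 12.

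**Figure D4:**
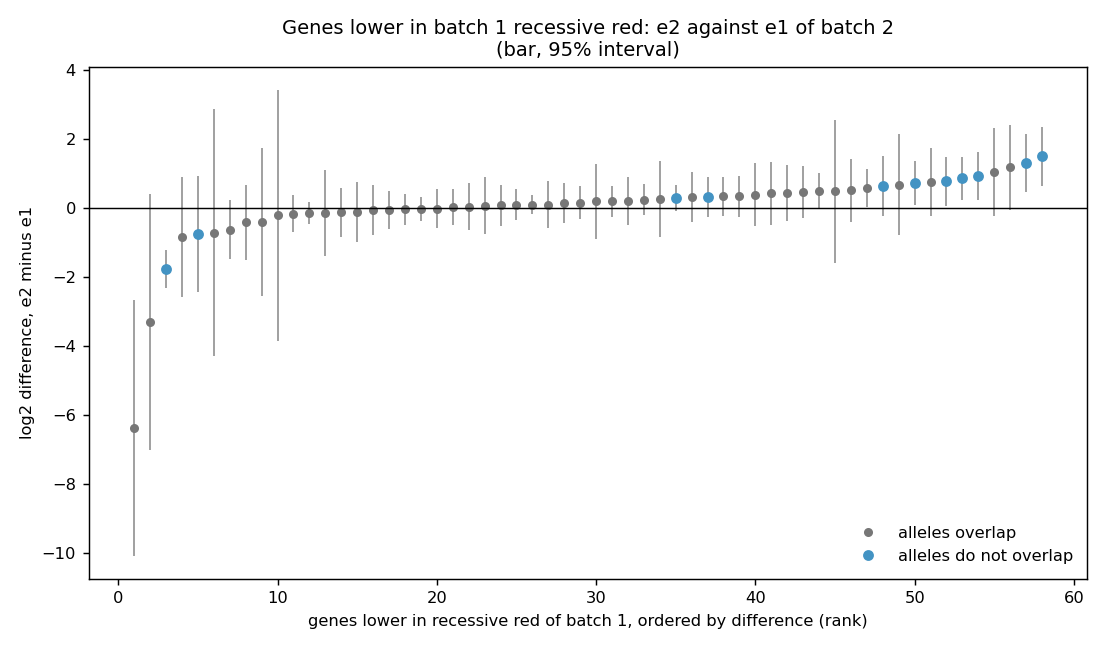
Log2 difference between e2 and e1 of batch 2 for each of the 58 genes lower in e1 of batch 1, ordered by value (point, fitted difference; bar, 95% interval; blue, genes in which the alleles do not overlap). Most points lie within 1 log2 unit of 0, 38 lie above 0, and the lowest is A306_00008195, which stood at 24.97 CPM in e1 bird 6 and under 1 CPM in the other 5 birds.

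The lowest difference in the list belonged to a gene that 1 bird decided. A306_00008195, singled out after its values were seen, stood at 0.230, 0.0644 and 0 CPM in e2 birds 5, 7 and 14, at 24.97 CPM in e1 bird 6 and at 0.203 and 0.287 CPM in e1 birds 11 and 12. Wild-type birds of batch 2 held 6.05 to 15.5 CPM, and the e1 birds of batch 1 held 0.0537 to 0.127 CPM. Bird 6, recessive red by its label, was thus above every wild-type bird for A306_00008195 while the other 5 recessive red birds of batch 2 were near 0. The fitted log2 difference of A306_00008195 was -6.36 ± 1.71 (SE; edgeR, adjusted p = 0.599).

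The alleles were next set against the range of the wild-type birds, gene by gene. The alleles did not overlap in 1020 genes (7.69%). In 524 genes (3.95%) every e2 bird was above every e1 bird, and in 496 (3.74%) every e2 bird was below. Of the 524, 138 had all e2 birds outside the range of the 5 wild-type birds while the e1 birds overlapped it (26.3%), and 80 had the reverse (15.3%). Of the 496, these numbers were 127 (25.6%) and 57 (11.5%). Over all 13269 genes e2 alone was outside the wild-type range in 7.28% and e1 alone in 5.54%. In 55.7% of all genes the fitted e1 level was nearer to wild type than the e2 level, and in the genes whose alleles did not overlap this held for 59.9% of those higher and 66.9% of those lower in e2. Pairs of e2 birds had a larger median distance (0.695) than pairs of e1 birds (0.638). The part of that unequal spread in these shares was not tested. In the genes picked because the alleles did not overlap, the pattern of A306_00012780, with only e2 outside the wild-type range, was commoner than the reverse. Groups this small also separate by chance, and whether more genes separated than chance gives was not tested. Picking genes in this way also favours those with an allele outside the wild-type range. The shares describe the picked genes only, and no test was made over them. In 54.2% of the 524 and 58.1% of the 496 both alleles overlapped wild type.

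What the comparison could resolve depended on the level of a gene. The 95% interval of the e2 minus e1 difference lay within 1 log2 unit of 0 in 9347 genes (70.4%), which bounds the difference in these genes to less than 2-fold in either direction, gene by gene and without adjustment for their number. The share was 94.2% of 3719 genes with a mean log2 CPM over 6, 89.5% of 4333 genes between 4 and 6, 65.3% of 2477 between 2 and 4, 20.4% of 1662 between 0 and 2 and 0.928% of 1078 below 0. The median half-width of the interval fell from 1.46 log2 units in the lowest class to 0.38 in the highest. The share over all genes also depended on the filter. It was 61.9% with no filter and 77.7% with a stricter filter of at least 1 CPM in at least 6 birds. With the total count as a covariate it was 63.1%, and with a bird left out it ranged from 64.4% to 73.0%. Among the 58 genes lower in batch 1, 25 (43.1%) were bounded in this way in the main fit. For the other genes the interval reached beyond 2-fold in at least 1 direction. A gene with no count in any of the 6 birds was not taken as bounded.

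**Figure D5:**
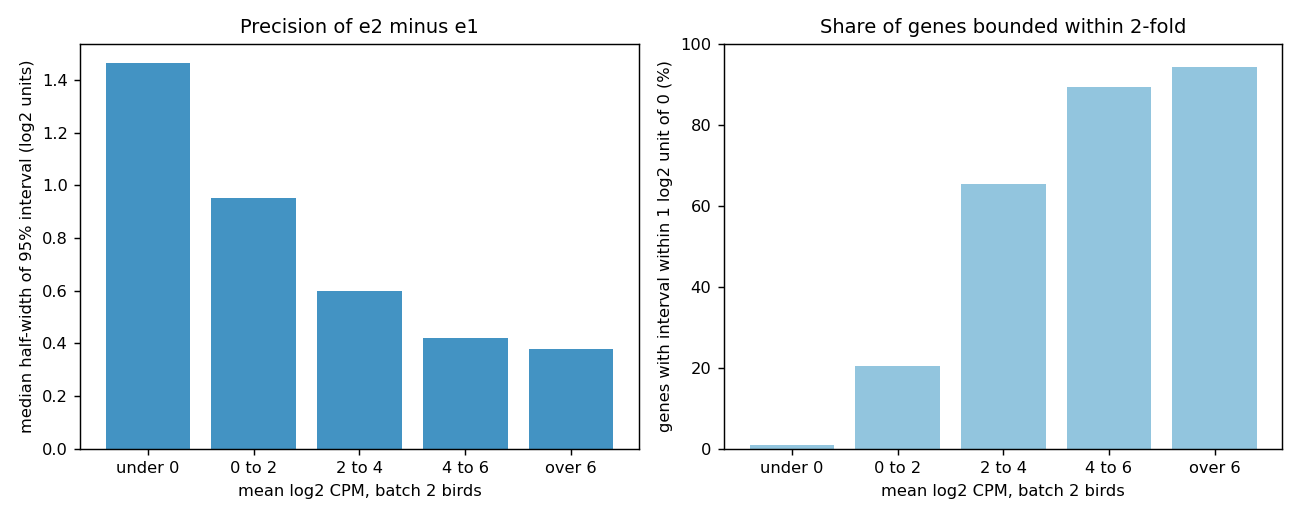
Left, the median half-width of the 95% interval of the e2 minus e1 difference, in log2 units, in 5 classes of mean log2 CPM; right, the percent of genes in each class whose interval lies within 1 log2 unit of 0. The half-width falls from 1.46 to 0.38 and the share rises from 0.928% to 94.2% with the level of the gene.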

How the data were processed

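Raw counts per gene and bird were deposited by the authors as 1 table of 15392 rows, 207 of them 0 in every bird, and each of its 19 count columns was matched to a bird by its title. Neither the aligner nor the counting program nor the use of strand is given in the sources used here. DESeq2 is named in the submitters' processing notes without a version. The deposited DESeq2 results were not used here.

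Low counts were removed with edgeR's filterByExpr (edgeR 4.0.16 in R 4.3.3), and TMM factors scaled the libraries. The filter goes by the smallest genotype group, which in batch 2 is the carrier, so a gene could pass there on 1 bird at 0.624 CPM. Without the carrier 12806 genes were tested in place of 13269. Each gene then had an edgeR quasi-likelihood test, with Benjamini-Hochberg adjustment over all those tested. The direct comparison fitted the 12 birds of batch 2 with a coefficient for each genotype, so that wild-type birds add to the estimate of the spread and do not enter the contrast. Their pairs had a smaller median distance (0.522) than pairs of e2 (0.695) or e1 birds (0.638). With the 6 recessive red birds alone, the SE went from 0.16 to 0.19 for A306_00012780 and from 0.15 to 0.18 for A306_00013822. For A306_00009490 it went from 0.25 to 0.24. The part of this spread in the calls was not tested. Standard errors are the absolute log2 fold change divided by the square root of F. CPM values are scaled within each batch, so a level in 1 batch is read beside wild type of the same batch. Distances and components used log2 CPM with a prior count of 2. Total counts of all birds ranged from 13559606 to 23168538.

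Alternatives used limma (3.58.1), DESeq2 (1.42.0) and sva (3.50.0). The fit was tested on counts simulated from a shared mean per gene, with known changes set in e2 for some genes. No other difference between groups and no larger spread among e2 birds was simulated. The simulation was thus a check of the code and gives no support to the calls. Genes were named by a rule: those called between the alleles, the lowest p in a direction with fewer than 2 calls, and the pair that fell most in batch 1. The last 2 of these were taken among genes with a mean log2 CPM of at least 1. The lowest p was also taken among genes whose alleles do not overlap. Genes called against e1 of batch 1, and those said to be singled out, were named after their values were seen. The birds compared, the lists and the rules were chosen with earlier results of these data known.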

Additional observations from a re-analysis of the deposited data

Results flagged for a closer look

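The alleles differed by a direct test in 3 genes, A306_00012780 at a log2 difference (e2 minus e1) of 1.29, A306_00013822 at -1.04 and A306_00009490 at -1.76 (edgeR, adjusted p = 0.0452, 0.0453 and 0.0453). Each e2 bird lay on the same side of each e1 bird in all 3 genes, as in 1020 (7.69%) of all genes tested. The 3 genes were picked in these same birds, so their lack of overlap adds no support. The calls did not survive leaving out any e2 bird.

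The change in e2 differed from the change in e1 of batch 1 in 2 genes, each change taken against wild type of its batch, with log2 differences of 1.95 for A306_00012780 and 3.41 for A306_00014154 (edgeR, adjusted p = 0.00854 and 0.0293). In both genes all 3 e2 birds were also above all 3 e1 birds of batch 2 in CPM, but the same e2 birds enter both comparisons. Against e1 of batch 2, A306_00014154 was not called (edgeR, adjusted p = 0.599). Batch and allele cannot be told apart in the comparison with e1 of batch 1.

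No wild-type bird was flagged in 20 checks of total count, detected genes, the share of counts of the 58 genes lower in batch 1, and named genes. Such a check picks a bird by chance in about 1 in 20 groups. For A306_00004410, however, wild-type bird 4 of batch 1 had 56 counts and wild-type birds 1, 2 and 3 of that batch had 0. Groups of 3 birds, which include both alleles, were not checked.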

How the results depend on the processing

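The count of 3 genes between e2 and e1 became 28 with the DESeq2 Wald test, 1 with upper-quartile scaling, 1 with limma-voom, and 0 with the 6 recessive red birds alone, with the total count as a covariate, or when a change beyond 1 log2 unit was required (edgeR; 472, 1215 and 91 genes at an unadjusted p under 0.05). It stayed at 2 or 3 with DESeq2 size factors, no filter, a stricter filter, robust estimation, 1 surrogate variable and both fits of all 19 birds. Of the 3 genes, 2 were kept with 1 surrogate variable, 1 with a batch term and 2 with a coefficient per group. Leaving out a batch 2 bird gave 0 to 3 genes. The cause of these losses was not tested. The count of 2 genes between e2 and e1 of batch 1 became 50 with the DESeq2 Wald test and 0 to 74 with a bird left out: 0 without e1 bird 1 or 4, 74 without e1 bird 3 of batch 1, 13 without e2 bird 5, 7 without e1 bird 6 of batch 2, and 1 without e1 bird 11 or 12, wild-type bird 00, 20 or 23 of batch 2 or wild-type bird 1, 3 or 4 of batch 1. It stayed at 2 under the other scalings and filters and with the replicate block within batch 1. Birds of batch 1 that share a number had deviations with correlations of -0.19, -0.08 and -0.13. So few values cannot settle whether those birds were paired, and within batch 2 no numbers are shared. The median difference of the 58 genes ranged from 0.03 to 0.33 with a bird left out. The difference of A306_00007909 reversed to -0.91 without e2 bird 14 and was at most 1.26 under the other alternatives, with 1.11 without e2 bird 7. With 3 birds in each allele, 2-fold differences in genes under a mean log2 CPM of 2 were mostly not resolved at this depth.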

Other observations

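Some transcripts were high in a single bird of the 6. In 2 genes the highest bird reached at least 10 CPM and at least 10 times the next bird, and in both it was e1 bird 6. One was A306_00008195, described above, and the other, singled out after its values were seen, was A306_00004305. It stood at 31.2 CPM in bird 6, from 502 counts, at 1.29 and 1.36 CPM in e1 birds 11 and 12, and at 0.837 to 1.32 CPM in the e2 birds. Wild-type birds of batch 2 held 1.23 to 2.69 CPM of A306_00004305.

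No gene with at least 30 counts over the e1 birds was without a count in all e2 birds, and 1 gene, A306_00004410, had the reverse. It had 303, 35 and 1 counts in e2 birds 5, 7 and 14 and 0 in each e1 bird of either batch. Against a floor of 3 counts over the e1 birds of batch 2, the pooled counts of the e2 group were at least 98.1-fold higher. Bird 5 held most of these counts and bird 14 had 1, so this fold describes the pooled counts and not each e2 bird. The gene was not called (edgeR, adjusted p = 0.599). A306_00004410 was seen in 2 wild-type birds, with 1 count in bird 24 of batch 2 and 56 counts in bird 4 of batch 1.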
